A study of Mus musculus with 2 samples.

Results

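The let-7 family is among the best known groups of microRNAs (miRNAs), the short RNAs that guide Argonaute proteins to messenger RNAs and repress them. Mouse let-7 genes lie partly inside clusters with miR-99 or miR-100 and miR-125 genes (mixed clusters) and partly outside them. The 9 genes outside those clusters are described here, namely Mirlet7a-1, Mirlet7f-1, Mirlet7d, Mirlet7b, Mirlet7c-2, Mirlet7f-2, Mir98, Mirlet7g and Mirlet7i. They were chosen by family and genome position, not by measured values, although earlier results of these data were known. They make up 9 of the 2202 miRNA genes in the count tables. Small RNA of mouse cerebral cortex was sequenced in 2 libraries of 1 group. The animals were wild-type controls of strain B6NCrl, described as female, although their fields for sex and age hold no entry. The libraries are numbered as biological replicates 2 and 1 and have a tissue record each, but both cite the same donor record, so separate animals are not stated. A different adapter trimming document is cited for each library, so trimming and replicate cannot be told apart. With no second condition, the comparisons were among the genes and between the libraries.

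A let-7 gene is transcribed as a long primary RNA, cut to a hairpin precursor by Drosha and to a short duplex by Dicer. The 5p strand of the duplex is the usual guide, and its seed (bases 2 to 8) sets which messages it pairs with. Let-7 miRNAs were found in worms as timing factors of development and rise in mammals as cells leave the progenitor state. The RNA-binding proteins LIN28A and LIN28B bind the precursor loop of many let-7 members and block their processing, and Lin28a, Lin28b, Hmga2 and Trim71 are themselves known targets. In developing brain, let-7 is known to favour neuronal differentiation over progenitor division.

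The 5p sequences are shown because they decide which reads can be given to a single gene. All 9 genes matched RefSeq (GRCm38.p6), and their 5p arms are given 5′ to 3′ with the seed in capitals.
let-7b-5p: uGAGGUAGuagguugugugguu
let-7i-5p: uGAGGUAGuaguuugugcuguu
let-7g-5p: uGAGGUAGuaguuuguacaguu
let-7d-5p: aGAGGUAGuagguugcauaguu
miR-98-5p: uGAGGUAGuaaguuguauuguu
let-7a-5p: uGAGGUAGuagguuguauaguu
let-7c-5p: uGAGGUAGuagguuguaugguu
let-7f-5p: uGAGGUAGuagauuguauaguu
The seed GAGGUAG is the same in all 8 sequences, and each is 22 nt long. With positions counted from 1 at the 5′ end and let-7a-5p as the starting sequence, the changes were A17G and A19G in let-7b-5p and A19G in let-7c-5p. They were U1A and U16C in let-7d-5p, G12A in let-7f-5p, and G12U and U18C in let-7g-5p. Let-7i-5p differed by G12U, A17G, U18C and A19U, and miR-98-5p by G11A and A19U. All of these changes lie outside the seed, and 5p sequences of different name differ from let-7a-5p at 1 to 4 of 22 positions.

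Some of these sequences come from more than 1 gene. Let-7a-5p is made by Mirlet7a-1 and also by Mirlet7a-2, which lies in a cluster with miR-100. Let-7c-5p is made by Mirlet7c-2 and by Mirlet7c-1, which lies in a cluster with miR-99a. Let-7f-5p is made by Mirlet7f-1 and Mirlet7f-2, both among the 9. The 3p arms of Mirlet7a-1 and Mirlet7c-2 are also identical, so neither gene has an arm of its own. Mirlet7f-1 and Mirlet7f-2 have a 3p arm of their own each, and Mirlet7b, Mirlet7d, Mirlet7g, Mirlet7i and Mir98 have both arms to themselves. Each of the shared 5p arms is shown with the next 4 genomic bases of the precursor, where the copies part past the 3′ end. The copies also differ at base 1 before the 5′ end, which is not shown. Capitals mark the bases that differ between the copies.
Mirlet7a-1 5p arm and next bases: ugagguaguagguuguauaguuuUAG
Mirlet7a-2 5p arm and next bases: ugagguaguagguuguauaguuuAGA
Mirlet7c-2 5p arm and next bases: ugagguaguagguuguaugguuuUgG
Mirlet7c-1 5p arm and next bases: ugagguaguagguuguaugguuuAgA
Mirlet7f-2 5p arm and next bases: ugagguaguagauuguauaguuUuAg
Mirlet7f-1 5p arm and next bases: ugagguaguagauuguauaguuGuGg
The let-7a and let-7c copies first differ at base 2 past the 3′ end, and the let-7f copies at base 1. A read within the annotated arm therefore matches both copies and would be in no gene's count, since the tables hold uniquely placed reads only. Reads placed at several loci numbered 8750989 in replicate 2 (47.9% of its reads) and 5486117 in replicate 1 (43.9%). They outnumbered the reads counted for the 9 genes by 7.65 times in replicate 2 and 9.12 times in replicate 1, and which miRNAs they belong to is not recorded. Values of the numbered copies are thus levels of the reads that could be placed, not of the miRNA.

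The tables hold raw counts of sense-strand reads per gene, with 5p and 3p arms summed. Gene counts totalled 6985784 in replicate 2 and 4429633 in replicate 1. Levels are given as CPM, the count of a gene scaled to a common total per library. A count of 3 corresponds to 0.429 CPM in replicate 2 and 0.677 CPM in replicate 1. Detection required at least 2 CPM in each library, which held for 438 of 2202 genes (19.9%) and for all 9 of the let-7 genes described here. Intervals cover counting error only, because they are computed from the counts with no term for spread between libraries. The tables also carry no molecular identifiers.

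The tissue label was checked against lists of marker miRNAs. Of 15 neuronal genes 11 were detected, and the list made up 9.42% of counts in replicate 2 and 7.79% in replicate 1. The highest was Mir132, an activity-regulated neuronal miRNA, with 61586 CPM in replicate 2 against 42570 CPM in replicate 1. The 3 Mir124a copies, which encode 1 neuronal miRNA, held only 4 to 16 counts each in replicate 2 and 3 to 7 in replicate 1. Reads that match several copies would not be in these counts, so they do not give the level of that miRNA. Of the 9 embryonic stem cell markers 8 were in the tables, and none was detected.

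The 9 genes together took 16.4% of the sense counts in replicate 2 (95% Wilson interval 16.35 to 16.41) and 13.6% in replicate 1 (13.54 to 13.61), a mean of 14.98 ± 1.98% (SD, n = 2). With all placed reads as the denominator, those placed at several loci included, the mean share was 6.42%. In reads this was 1144418 in replicate 2 and 601402 in replicate 1. Nearly all of it came from genes without a copy number. Mirlet7b, Mirlet7i, Mirlet7g, Mirlet7d and Mir98 summed to 16.2% in replicate 2 and 13.4% in replicate 1. The numbered copies Mirlet7a-1, Mirlet7c-2, Mirlet7f-1 and Mirlet7f-2 summed to 0.229% in replicate 2 and 0.145% in replicate 1.

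Mirlet7b was the highest of the 9. It had 51647 CPM in replicate 2 and 54505 CPM in replicate 1, a mean of 53076 ± 2021 CPM, and ranked number 2 of all genes by mean. Mirlet7i had 44115 CPM in replicate 2 and 28269 CPM in replicate 1, a mean of 36192 ± 11205 CPM. Mirlet7g had 37004 CPM in replicate 2 and 22841 CPM in replicate 1, a mean of 29922 ± 10015 CPM. Both lie alone at their loci, and both were higher in replicate 2. Mirlet7d, the gene of the only 5p arm that starts with A, had 28055 CPM in replicate 2 and 28338 CPM in replicate 1, a mean of 28197 ± 200 CPM. By mean level Mirlet7i, Mirlet7g and Mirlet7d ranked 6, 7 and 8 among all genes. These ranks and that of Mirlet7b are of uniquely placed reads. They are not ranks of abundance among miRNAs, since reads placed at several loci are left out.

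The other 5 genes were far lower. Mirlet7c-2 had 881 CPM in replicate 2 and 779 CPM in replicate 1, a mean of 830 ± 72.3 CPM. Mirlet7f-2 had 932 CPM in replicate 2 and 390 CPM in replicate 1, a mean of 661 ± 383 CPM. Mir98, whose product carries the let-7 seed under another name, had 708 CPM in replicate 2 and 370 CPM in replicate 1, a mean of 539 ± 239 CPM. Mirlet7c-2 was thus close between the libraries, while Mirlet7f-2 and Mir98 were higher in replicate 2. Mirlet7a-1 had 415 CPM in replicate 2 and 247 CPM in replicate 1, a mean of 331 ± 119 CPM. Mirlet7f-1 was the lowest and had 64.3 CPM in replicate 2, against 29.8 CPM in replicate 1, a mean of 47.0 ± 24.4 CPM. Its 449 and 132 reads in replicates 2 and 1 were still well above the floor of 3 counts.

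**Figure D1:**
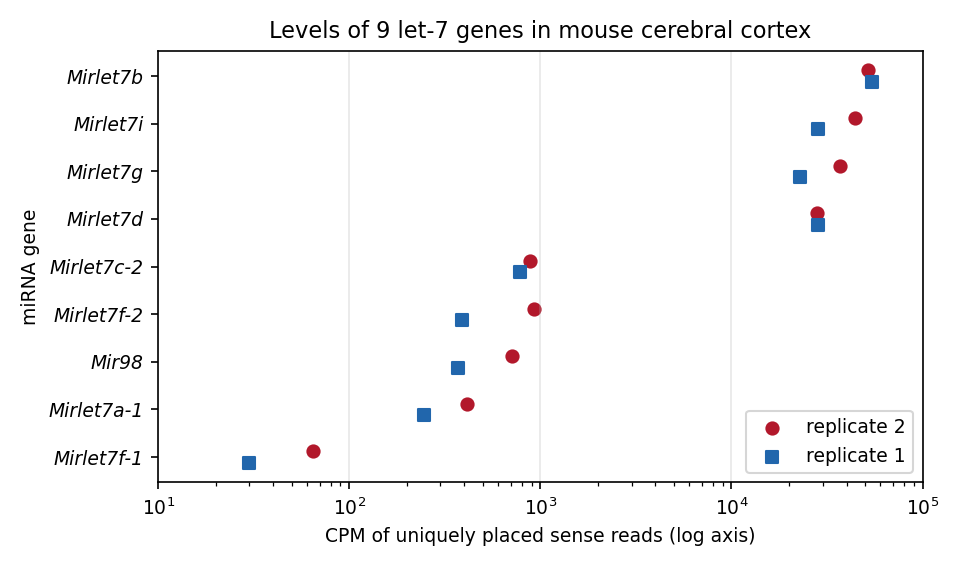
Level of each let-7 gene in CPM of uniquely placed sense reads (log axis), ordered by mean, with circles for replicate 2 and squares for replicate 1. Mirlet7b, Mirlet7i, Mirlet7g and Mirlet7d lie at 22841 CPM or more in both libraries, and the other 5 genes lie at 932 CPM or less.

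Read against the spread between the 2 libraries, the order had 3 steps with no overlap of ranges. Mirlet7b lay above Mirlet7i in both libraries, by 1.47 times in the means, but unevenly, by 1.17 times in replicate 2 and 1.93 times in replicate 1. Mirlet7d lay above Mirlet7c-2 by 33.97 times, and Mirlet7a-1 above Mirlet7f-1 by 7.03 times. The ranges of all other neighbours overlapped, so Mirlet7i, Mirlet7g and Mirlet7d were not ordered beyond their spread, nor were Mirlet7c-2, Mirlet7f-2, Mir98 and Mirlet7a-1 from neighbour to neighbour. Mirlet7d ranked below Mirlet7g in replicate 2 and above both Mirlet7i and Mirlet7g in replicate 1.

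The level went with whether a 5p arm could be placed. Over the 12 let-7 genes (the 9 and the 3 in the mixed clusters), the 6 with a 5p arm of their own had mean levels of 539 to 53076 CPM, with a median of 29060 CPM. The 6 with a shared 5p arm had 47.0 to 830 CPM, with a median of 327 CPM. Mir98 was the exception among genes with an arm of their own, and the next lowest of them was Mirlet7e at 21078 CPM. Mir98 also had the shortest shared run, since no more than 10 nt of its 5p arm in a row occur in another let-7 precursor. The corresponding run was 13 nt for Mirlet7e, 14 nt for Mirlet7d and 16 nt for Mirlet7b, Mirlet7g and Mirlet7i. By number of differences from let-7a-5p, miR-98-5p did not stand apart, with 2 as in let-7b-5p, let-7d-5p and let-7g-5p. How much of the gap between the groups comes from unplaced reads cannot be told apart from a true difference in level.

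**Figure D2:**
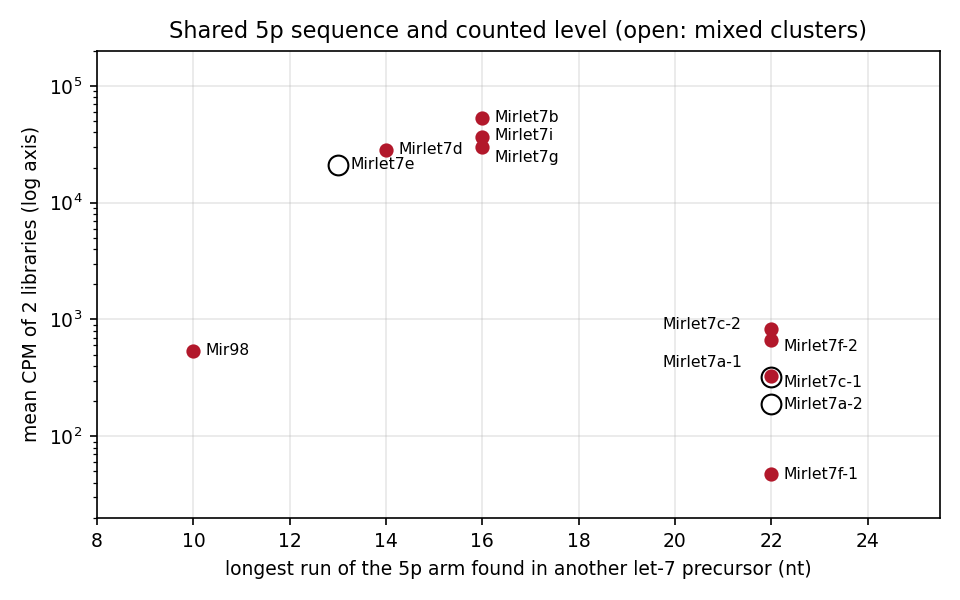
Mean CPM of 2 libraries (log axis) against the longest run of the 5p arm, in nt, that occurs in another let-7 precursor, with filled points for the 9 genes and open circles for the 3 in the mixed clusters. Genes with a run of 22 nt lie at 47.0 to 830 CPM, and Mir98, with a run of 10 nt, lies at 539 CPM.

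Across all miRNA genes with arms listed in RefSeq, detection was set beside sharing of the listed arms. Only arms listed under a gene's own name were used. Let-7a-5p is listed under Mirlet7a-1 and not under Mirlet7a-2, which therefore falls here among the genes with no shared arm. Other copies may be sorted in the same way, so the classes are approximate. Of 904 genes whose listed arms all occur in no other precursor, 348 were detected (38.5%). Of 53 genes whose listed arms all occur elsewhere, 7 were detected (13.2%), Mirlet7a-1 and Mirlet7c-2 among them. Of 61 genes with some arms shared, the class of Mirlet7f-1 and Mirlet7f-2, 40 were detected (65.6%). The median level of detected genes was 331 CPM where every listed arm was shared, 81.4 CPM where some were and 71.9 CPM where none was. The let-7 genes are included in these classes, and the 331 CPM is the level of Mirlet7a-1 itself, among only 7 genes. The medians therefore do not compare the let-7 genes with other genes.

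The 9 genes lie at 5 loci, given in mm10 coordinates with GENCODE M21 hosts. The chromosome 15 pair on the plus strand, Mirlet7c-2 (chr15:85706603-85706697) and Mirlet7b (chr15:85707319-85707403), lies 621 nt apart, each gene in an exon of the noncoding transcript Lncppara. It took 5.25% of counts in replicate 2 and 5.53% in replicate 1, and Mirlet7b held 98.3% of the pair in replicate 2 and 98.6% in replicate 1. Mirlet7i (chr10:122985640-122985724, minus strand) lies in an exon of the transcribed processed pseudogene D630033A02Rik and took 4.41% in replicate 2 and 2.83% in replicate 1. Mirlet7g (chr9:106178840-106178927, plus strand) lies in an intron of Wdr82, which encodes a subunit of a histone methyltransferase complex, and took 3.70% in replicate 2 and 2.28% in replicate 1. Those 3 loci held the largest shares of replicate 2.

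On the minus strand of chromosome 13, Mirlet7a-1 (chr13:48538179-48538272), Mirlet7f-1 (chr13:48537829-48537917) and Mirlet7d (chr13:48536012-48536114) lie within 2261 nt, each in an exon of the long noncoding RNA 6720427I07Rik. The cluster took 2.85% of counts in replicate 2 and 2.86% in replicate 1. Mirlet7d held 98.3% of the cluster in replicate 2 and 99.0% in replicate 1, Mirlet7a-1 held 1.45% and 0.862% in replicates 2 and 1, and Mirlet7f-1 held 0.225% and 0.104%. Genes annotated in exons of 1 host gene thus differed widely in placed reads, with the shared 5p arms on the low side.

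The X chromosome pair on the plus strand, Mirlet7f-2 (chrX:151912346-151912428) and Mir98 (chrX:151913214-151913321), lies 785 nt apart in an intron of Huwe1, the gene of a ubiquitin ligase. It took 0.164% of counts in replicate 2 and 0.0760% in replicate 1. Here the genes were close to even, with Mirlet7f-2 at 56.8% of the pair in replicate 2 and 51.3% in replicate 1. Mir98 held 43.2% in replicate 2 and 48.7% in replicate 1, although its 5p arm is its own and that of Mirlet7f-2 is shared.

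**Figure D3:**
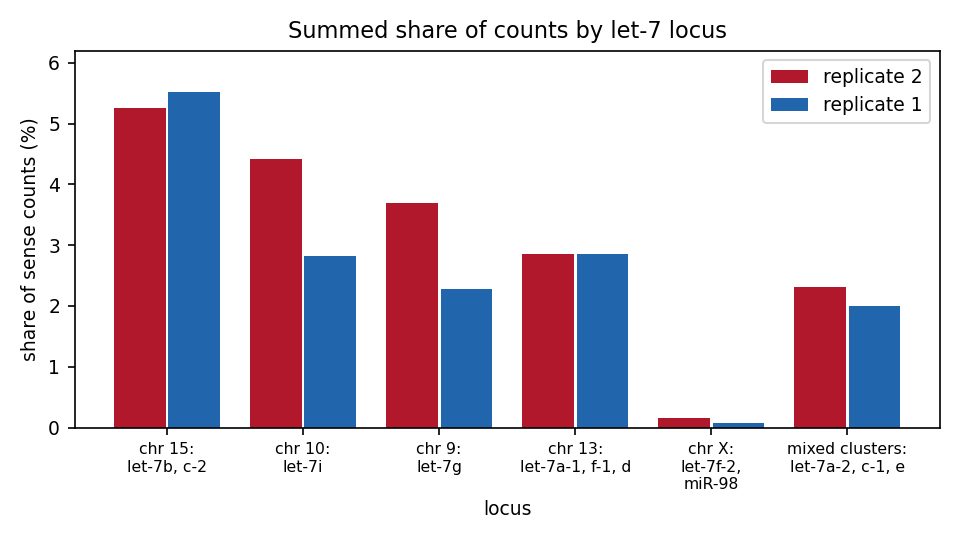
Share of all sense counts, in percent, held by each locus of the 9 let-7 genes, with the left bar of each pair for replicate 2 and the right bar for replicate 1. The last pair is not a single locus but the sum of the 3 let-7 genes of the mixed clusters. The chromosome 15 and 13 loci were nearly even between libraries, and the chromosome 10, 9 and X loci were higher in replicate 2.

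In placed reads, the 9 genes outnumbered the 3 let-7 genes of the mixed clusters by a similar factor in both libraries. It was 7.07 in replicate 2 and 6.79 in replicate 1 (mean 6.93 ± 0.20). Let-7a-5p and let-7c-5p are made by genes of both groups, and reads within those arms would be in no gene's count. The factor therefore does not compare the let-7 output of the groups. The 3 were nearly all Mirlet7e, whose 5p arm is its own and which had 22673 CPM in replicate 2, against 19483 CPM in replicate 1. Mirlet7a-2 had 168 CPM in replicate 2 and 206 CPM in replicate 1, and Mirlet7c-1 had 329 CPM in replicate 2 and 318 CPM in replicate 1. Their sum was 2.32% of counts in replicate 2 and 2.00% in replicate 1.

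Copies of 1 mature sequence could be set side by side across the groups. Mirlet7a-1 was above Mirlet7a-2 in both libraries, with 415 against 168 CPM in replicate 2 and 247 against 206 CPM in replicate 1. Mirlet7c-2 was likewise above Mirlet7c-1, with 881 against 329 CPM in replicate 2 and 779 against 318 CPM in replicate 1. Mirlet7f-2 was above Mirlet7f-1 in both libraries, with 932 against 64.3 CPM in replicate 2 and 390 against 29.8 CPM in replicate 1. These are differences in placed reads, and the bases beyond either end of the arm, which can allow placement, differ from copy to copy.

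To compare the libraries, each gene's counts were put to a two-sided exact binomial test after TMM scaling of the totals, with Benjamini-Hochberg adjustment over the 438 detected genes. Calls needed both an adjusted p under 0.05 and at least a 2-fold ratio. The test sees counting error in these libraries, not conditions. By this rule 18.0% of detected genes were called in either direction, 9.36% as higher in replicate 2 and 8.68% as higher in replicate 1. Of the 9 let-7 genes 3 were called, all higher in replicate 2. The adjusted p alone was under 0.05 for all 9, but also for 63.9% of detected genes, so at these depths it marks differences far smaller than the ratio limit.

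The called genes were Mirlet7f-2, Mirlet7f-1 and Mir98, those with the lowest GC content in the 5p arm. Mirlet7f-2 had 6509 reads in replicate 2 and 1726 in replicate 1, which gave a log2 ratio of 1.38 (95% counting interval 1.31 to 1.46). Mirlet7f-1 had 449 reads in replicate 2 and 132 in replicate 1, which gave a log2 ratio of 1.23 (0.95 to 1.53, adjusted p = 8.29e-20 in the exact binomial test). Mir98 had 4949 reads in replicate 2 and 1639 in replicate 1, which gave a log2 ratio of 1.06 (0.98 to 1.14, adjusted p = 9.02e-163 in the exact binomial test). Ratios as far from 1 were found in 8.22% of detected genes for Mirlet7f-2, 9.82% for Mirlet7f-1 and 15.5% for Mir98. Mir98 fell short of the ratio limit with library totals (log2 ratio 0.94), and none of the 3 reached it with the trend on precursor GC removed (0.99 for Mirlet7f-2, 0.77 for Mirlet7f-1 and 0.74 for Mir98, unadjusted p under 0.05 in the exact binomial test in 8 of the 9). With that trend removed 58 of 438 genes were called (13.2%, and 5.71% as higher in replicate 2).

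The other 6 were not called. With TMM scaling all 6 lay above replicate 1, but Mirlet7d and Mirlet7b lay below it with library totals and with either GC trend removed, and Mirlet7c-2 with the 5p GC trend removed (-0.063). Mirlet7a-1 had a log2 ratio of 0.87, Mirlet7g of 0.82 and Mirlet7i of 0.77. Mirlet7c-2 had 0.30, Mirlet7d 0.11 and Mirlet7b 0.05, and ratios as far from 1 as those of Mirlet7d and Mirlet7b were found in 86.1% and 93.8% of detected genes. The median over the 9 was 0.82, beside -0.03 over all detected genes, whose log2 ratios had an SD of 0.92. With library totals in place of TMM the median over all detected genes was -0.16, and the log2 ratios of Mirlet7d and Mirlet7b were -0.014 and -0.078.

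**Figure D4:**
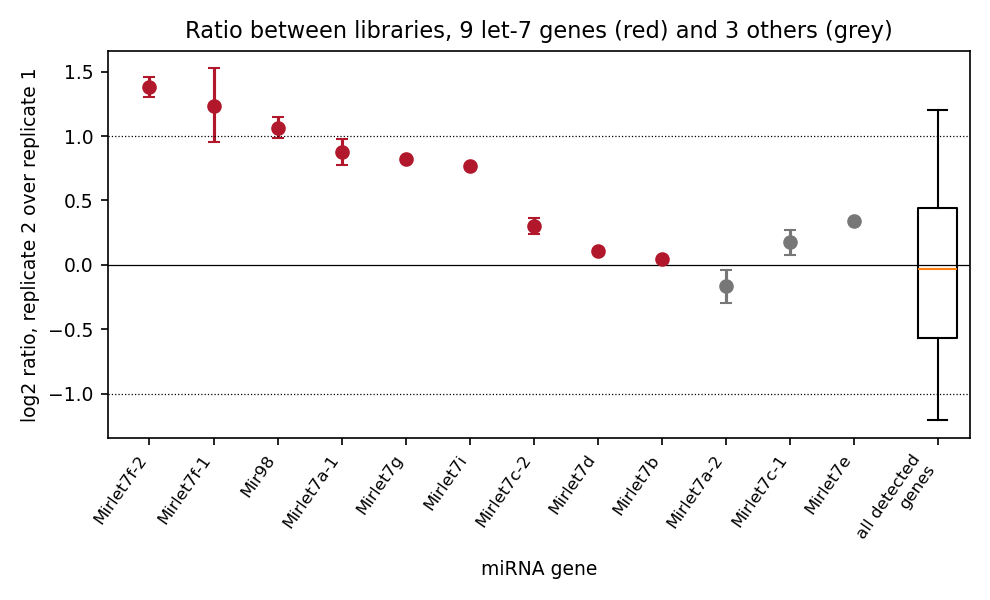
Log2 ratio of replicate 2 over replicate 1 for the 9 let-7 genes (red) and the 3 of the mixed clusters (grey), with bars for exact 95% counting intervals and dotted lines at a ratio of 2 in either direction. The box at the right gives the median and quartiles of the 438 detected genes, with whiskers at their outer 5% on each side, and with TMM the 9 genes run from 1.38 for Mirlet7f-2 to 0.05 for Mirlet7b, which lies at -0.078 with library totals, as Mirlet7d lies at -0.014.

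None of the 3 let-7 genes of the mixed clusters was called by the exact binomial test with the ratio limit, although all 3 had an adjusted p under 0.05. Their log2 ratios were 0.34 for Mirlet7e, 0.18 for Mirlet7c-1 and -0.17 for Mirlet7a-2. Of their cluster partners, Mir100 was called higher in replicate 2, with 6807 CPM in replicate 2, against 3368 CPM in replicate 1 (log2 ratio 1.14). Mir99b had 5636 CPM in replicate 2 and 10306 CPM in replicate 1 (log2 ratio -0.75), and the other 4 partners lay between -0.30 and 0.51. Among the families taken for comparison, all 3 Mir26 genes were called higher in replicate 2, with a median log2 ratio of 1.06, and 0 of 6 Mir30 genes were called, with a median of 0.35 and an adjusted p under 0.05 in 4 of 6. The difference between these groups was not tested, and the 9 are not shown to be particular in it.

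The libraries also differed in some of the marker miRNAs. The 5 choroid plexus and ependyma markers summed to 0.247% of counts in replicate 2 and 0.117% in replicate 1, with 4 of 5 called higher in replicate 2. The 7 epithelial markers summed to 0.206% in replicate 2 and 1.28% in replicate 1, with 6 of 7 called higher in replicate 1. The unmapped share was 11.1% in replicate 2 and 17.0% in replicate 1. The part of these differences in the let-7 ratios was not tested. In bulk tissue, fewer cells of a type and less RNA per cell cannot be told apart.

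The let-7 ratios went with the base composition of the 5p arm. Mirlet7f-2, Mirlet7f-1 and Mir98, with 31.8% GC in the 5p arm, had ratios of replicate 2 over replicate 1 of 2.61, 2.35 and 2.09. At 36.4% GC, Mirlet7a-1 had a ratio of 1.83 and Mirlet7g of 1.77. At 40.9% GC, Mirlet7i had 1.70, Mirlet7c-2 had 1.23 and Mirlet7d had 1.08, and Mirlet7b at 45.5% GC had 1.03. Spearman's rho between GC and the log2 ratio over the 9 genes was -0.96, and -0.97 over the 5 genes without a copy number. These points share both libraries, and copies share their 5p arm. Counts sum both arms, and a read within a shared 5p arm would be in no gene's count. For the numbered copies, GC of the 5p arm may therefore not be that of the counted reads. Mirlet7a-2 did not follow, with a ratio of 0.891 at 36.4% GC, and over the 12 let-7 genes rho was -0.75. GC of the whole precursor, the measure planned beforehand, gave a rho of -0.70 over the 9 genes and -0.45 over all detected genes. GC of the 5p arm was not a planned measure.

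The same direction was found outside the family. Over the 360 detected genes with a 5p arm in RefSeq, the 12 let-7 genes included, rho was -0.46. Leaving out the 12 let-7 genes, the median log2 ratio was 0.54 in 36 genes under 40% GC, 0.21 in 104 genes from 40 to 50%, -0.07 in 115 genes from 50 to 60% and -0.49 in 93 genes at 60% or more. The upper quartile was 0.819 under 40% GC, below all 5 of the let-7 genes described here in that class (0.821 for Mirlet7g, the lowest), and 0.69 from 40 to 50%, below Mirlet7i at 0.77. With the trend on 5p GC removed over all genes, a step chosen after seeing the data, the log2 ratios of Mirlet7f-2, Mirlet7f-1 and Mir98 were 0.74, 0.59 and 0.42. Then 0 of the 9 were called by the exact binomial test with the ratio limit, with an unadjusted p under 0.05 in all 9, beside 45 of the 360 genes with a 5p arm (12.5%, and 5.28% as higher in replicate 2). The median log2 ratio of the 9 was then 0.36. What links GC content and library was not tested.

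**Figure D5:**
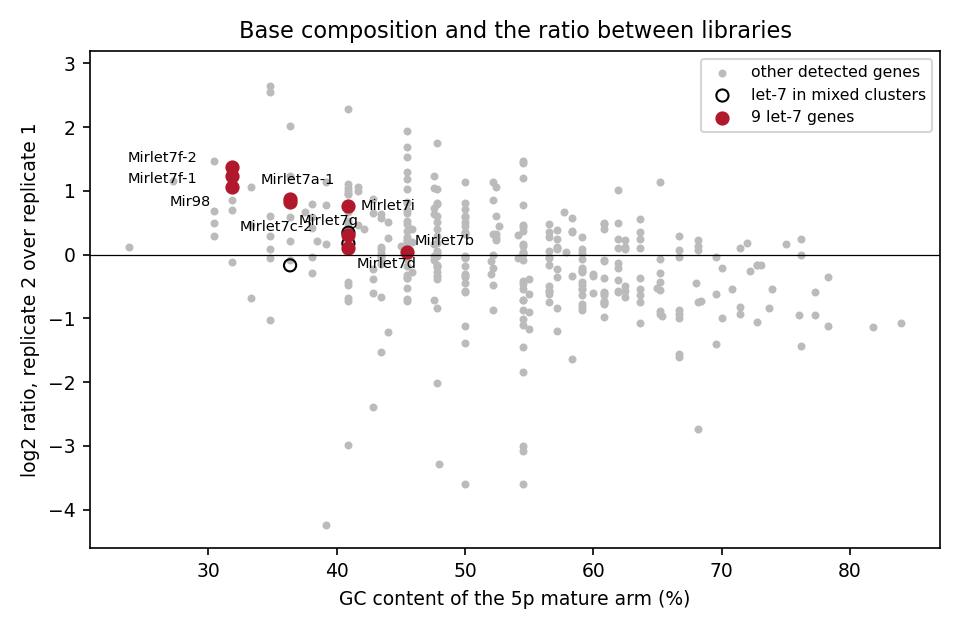
Log2 ratio of replicate 2 over replicate 1 against the GC content of the 5p arm in percent, for the 9 let-7 genes (filled), the 3 of the mixed clusters (open) and the other detected genes with a 5p arm in RefSeq (grey). The 9 run from 1.38 at 31.8% GC to 0.05 at 45.5% GC, in the same direction as the grey points, and the 5 under 40% GC lie above the upper quartile of the grey points there (0.82).

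The precursors were searched for GGAG, the letters of the loop motif that the zinc knuckles of LIN28 are known to bind. GGAG lay between the mature arms of 6 of the 9 precursors, those of Mirlet7a-1, Mirlet7f-1, Mirlet7d, Mirlet7f-2, Mirlet7g and Mirlet7i, with no match in Mirlet7b, Mirlet7c-2 and Mir98. It was present in all 3 let-7 precursors of the mixed clusters. Anywhere on the transcribed strand of the hairpin, it was held by 447 of 1005 RefSeq mouse hairpins (44.5%), so a match is common. The stretch between the arms was 26 to 36 nt long in the 9 and 23 nt in each of the 3 others.

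Strand was checked because annotated genes overlap let-7 genes on the opposite strand. Mirlet7b had 1 opposite-strand count in replicate 2 and 2 in replicate 1, and the other 8 genes had 0 in both libraries, which allows up to 0.429 CPM in replicate 2 and 0.677 CPM in replicate 1. Gm24111 (chr13:48537825-48537921, plus strand) covers all 89 nt of Mirlet7f-1. Counted on its opposite strand, it held 449 reads in replicate 2 and 132 in replicate 1, the same numbers as Mirlet7f-1, and 0 reads in sense. In the column that ignores strand, Mirlet7f-1 therefore has 0 counts in both libraries. Gm25927 does the same to Mirlet7e.

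Other annotated genes with let-7 in their names were low. Mir7j, the gene of let-7j, whose bases 2 to 8 do not match the let-7 seed, had 21.9 CPM in replicate 2 and 9.93 CPM in replicate 1 and was called higher in replicate 2 (log2 ratio 1.25). Mir7k, the gene of let-7k, which carries the seed, had 9 reads in replicate 2 and 6 in replicate 1 and was not detected.

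The genes outside the family nearest in level over the 2 libraries, by Euclidean distance on log2(CPM + 1), were Mir127 for Mirlet7b (distance 0.35) and for Mirlet7i (0.71). Mir127 comes from the imprinted Dlk1-Dio3 region and had 43249 CPM in replicate 2 and 46372 CPM in replicate 1. Mir23b, of the miR-23b/27b/24 cluster, was nearest to Mirlet7d (0.48) and to Mirlet7g (0.66). Mir34c, known from ciliated epithelium and testis and also on the choroid plexus and ependyma list, was nearest to Mir98 (0.27), with 620 CPM in replicate 2, against 325 CPM in replicate 1. Nearness was measured over 2 libraries only.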

How the data were processed

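The authors deposited 1 table of raw read counts per library and miRNA gene, in columns for either strand, sense and opposite strand. Per the labels and a readme deposited with them, the tables use mm10 and the M21 annotation. Which aligner and counter were used is not given in the sources used here. The 4 summary lines (unmapped reads, reads at several loci, reads outside genes, ambiguous reads) were left out of totals. Reads outside genes were 2.81% in replicate 2 and 3.67% in replicate 1, and ambiguous reads 2.15% and 1.74%.

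Sense counts were scaled to CPM. TMM factors came from edgeR 4.0.16 and alternative size factors from DESeq2 1.42.0 (R 4.3.3). Exact binomial tests used scipy 1.17.1, with 0.5 counts added for log2 ratios. Count models with replicates had no contrast to test, because there is 1 group. The binomial test was first run on simulated counts with known changes and counting error only, judged by adjusted p without the ratio limit. That run therefore says nothing of how the calls behave under spread between libraries. Alternatives were the scaling, the filter, the strand column, the GC trend, thinning of the deeper library and the ratio limit.

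The genes named were the 9, the other let-7 genes, their cluster partners, genes opposite a let-7 gene, and for each of the 5 without a copy number the nearest gene outside the family. Members and lists were chosen with earlier results of these data known. The binomial p-values measure counting error only, not spread between animals or preparations.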

Additional observations from a re-analysis of the deposited data

Results flagged for a closer look

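Reads outside the sense counts of the let-7 genes were looked at as well. Counted on its opposite strand, Gm24111 held 449 reads in replicate 2 and 132 in replicate 1, which are the reads of Mirlet7f-1. Reads placed at several loci numbered 8750989 in replicate 2 and 5486117 in replicate 1. They include no gene name, so the share from let-7a, let-7c and let-7f is not known.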

How the results depend on the processing

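No paired analysis was possible because the series has 1 group. Leaving out either library gave a summed share of 13.6 to 16.4% and a ratio of placed reads to the 3 other let-7 genes of 6.79 to 7.07. The share was 6.42% with reads at several loci in the denominator. The ratio was 294 with either-strand counts, where Mirlet7e has 0 counts. Of the 9 let-7 genes 0 were called by the exact binomial test with the trend on precursor GC removed (unadjusted p under 0.05 in 8; 58 of 438 genes called overall), 0 with the trend on 5p GC removed (in 9), and 6 at a ratio limit of 1.5. Over the 438 detected genes 171 were called at that limit, beside 79. With the 5p GC trend removed 45 were called, out of only the 360 genes with a 5p arm, so this count is not on the same genes. With library totals 84 were called (29 with replicate 2 higher, 55 with replicate 1 higher), beside 41 and 38 with TMM, and Mir98 fell short at a log2 ratio of 0.94. Signs turned for Mirlet7d and Mirlet7b with library totals (-0.014 and -0.078) and with the precursor GC trend removed (-0.21 and -0.0063). With the 5p GC trend removed they turned for Mirlet7d, Mirlet7b and Mirlet7c-2 (-0.26, -0.18 and -0.063). The cause was not tested. The median log2 ratio of the 9 stayed between 0.36 and 0.92 in the alternatives run.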
